A study of Mus musculus with 12 samples.

Results

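The genes described here are 44 genes of glycolysis and of the cellular response to low oxygen, listed by symbol: glucose transporters, the enzymes from hexokinase to lactate dehydrogenase, the kinases and transporters around pyruvate and lactate, the fructose bisphosphatases, the subunits and oxygen sensors of hypoxia-inducible factor (HIF), and well-known HIF targets. Named probes were found for 41 of the 44, with 77 of the 45281 probes on the array between them. No probe carried the symbols Hk2, Gpi1 and Eno1, and these genes were not analysed here. Of the 41 genes, 32 had a probe above background on at least 4 of the 12 arrays and were tested, and 9 did not.

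The arrays were Illumina mouse whole-genome BeadChips hybridized with RNA from NSC-34 cells, a hybrid of mouse neuroblastoma and embryonic spinal cord motor neurons, and each group had 4 arrays. NSC-34/shPGRN cells (shPGRN cells) carried a short hairpin RNA against mouse Grn, the gene of progranulin (PGRN), in a pRS vector selected with puromycin. NSC-34/hPGRN cells (hPGRN cells) overexpressed human PGRN from pcDNA3 selected with G418. Control cells carried an empty vector, and which of the study's vectors it was is not stated, so vector and drug cannot be told apart from PGRN level in these comparisons. Cultures of 200000 plated cells were moved from 10% to 5% and then 1% serum, with 24 h in each. Whether a line was 1 clone or a pool is not stated. The 4 arrays of a group came from 1 stable line. The p-values therefore describe the spread among samples of that line, and in RNA from whole cultures fewer expressing cells and less RNA per cell cannot be told apart.

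In glycolysis, glucose enters through GLUT transporters, is phosphorylated and split into triose phosphates, and is oxidized to pyruvate, which is either reduced to lactate or passed to the mitochondria. HIF is a pair of a labile alpha subunit (HIF-1α from Hif1a, HIF-2α from Epas1) and a stable beta subunit from Arnt. In the presence of oxygen the prolyl hydroxylases of the Egln genes mark the alpha subunit for the ubiquitin ligase that contains Vhl, and when oxygen falls the pair binds a short core sequence, ACGTG or GCGTG, and raises many glycolytic genes along with Vegfa, P4ha1, Egln3 and others. Neurons rely heavily on glucose, and Slc2a3 encodes their main glucose transporter.

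Grn itself was measured at 612 ± 74.1 (SD, n = 4 arrays) in shPGRN, 1048 ± 158 in hPGRN and 887 ± 55.2 in control cells. The shPGRN level was below that of control cells (limma log2 change -0.49 ± 0.11, adjusted p = 0.00248). The probe reads the mouse transcript, and the human PGRN of hPGRN cells was not analysed here. Mouse Grn did not separate hPGRN from control cells past the threshold (limma log2 change 0.22 ± 0.11, adjusted p = 0.251), so the labels of these 2 groups could not be checked against PGRN itself, and every value below that involves them rests on the labels. Arrays of the same group correlated at 0.988 to 0.996 across genes, and 19173 to 19605 probes per array lay above background. Of 15 neuronal and motor neuron markers with a probe, 10 were above background on at least 4 arrays, among them Phox2a, Isl1, Gap43 and Uchl1, whereas Nefl was above background on none and Chat on 3. Their summed intensity was 10004 to 11763 in shPGRN, 12368 to 13699 in hPGRN and 11059 to 12040.2 in control cells, a sum carried by Phox2a, Uchl1 and Isl1. Of the 10, limma called 1 higher and 4 lower in shPGRN than in control cells, 1 higher and 1 lower in hPGRN than in control cells, and 1 higher and 4 lower between the modified lines. The shares of all genes called in each comparison follow below.

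Of the 32 tested genes, 20 were called in none of the 3 comparisons and 12 in at least 1. The matching share over all genes was not counted, and the shares in each comparison are given here. Against control cells, 6 of the 32 tested genes were higher and 3 were lower in shPGRN cells at an adjusted p under 0.05 in limma (values below are limma log2 fold changes ± SE, with n = 4 arrays per group), and 15 had an unadjusted p under 0.05. Over all 11223 genes tested, 7.36% were called higher and 6.89% lower in this comparison. In hPGRN cells, 3 of the 32 were higher and 1 was lower than in control cells, with 11 at an unadjusted p under 0.05, where 3.74% and 3.24% of all genes were called. Between shPGRN and hPGRN cells 2 were higher and 2 lower, with 10 at an unadjusted p under 0.05, against 6.82% and 7.14% of all genes. Stc1, counted among the lower genes against control cells in both lines, passed the filter on dim probes only through its control level. The set was chosen with earlier results of these data known. A share above that of all genes, here or below, is therefore no independent result about the set. The median log2 fold change of the 32 genes was 0.04, 0.12 and 0.03 in the 3 comparisons in this order, and that of all genes tested was within 0.01 of 0 in each.

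Changes of at least 1.5-fold were fewer. Of the 32 genes, 3 passed both the test and this limit in shPGRN against control cells (Fbp2, Stc1 and Egln3), 2 in hPGRN against control cells (Fbp2 and Stc1) and 1 between the modified lines (Egln3), where the shares of all genes were 2.48%, 1.02% and 2.43%. The plot of fold changes shows these 3 genes apart from the rest of the pathway, most of which lay within 0.5 of 0 on the log2 scale.

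**Figure D1:**
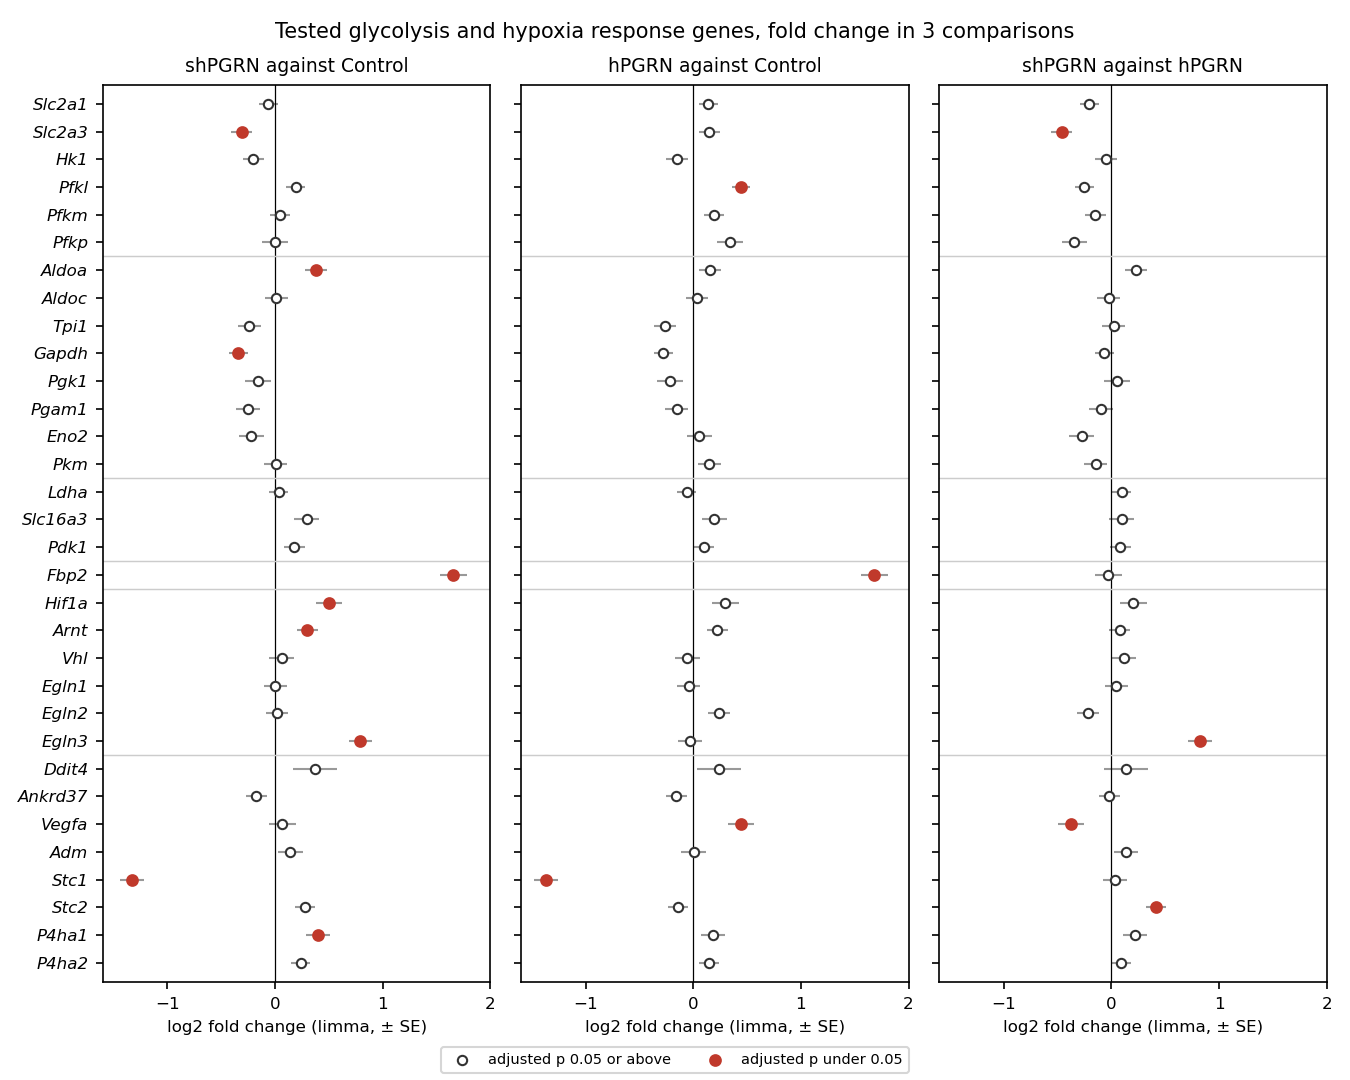
Log2 fold change of the 32 tested genes (rows, ordered from glucose entry through glycolysis and the HIF system to HIF targets) in the 3 comparisons, with the standard error of the limma fit as bars and filled red points at an adjusted p under 0.05. Fbp2 lies at 1.66 and 1.68 and Stc1 at -1.33 and -1.37 against control cells, and Egln3 at 0.79 and 0.82 in the comparisons that contain shPGRN cells.

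Fbp2 encodes the muscle form of fructose-1,6-bisphosphatase, which runs the phosphofructokinase step of glycolysis backwards. It was higher in both modified lines. Its intensities were 576, 395, 531 and 649 on the shPGRN arrays, 468, 647, 534 and 533 on the hPGRN arrays and 143, 85.6, 109 and 145 on the control arrays. Every array of a modified line lay above every control array, and the modified lines overlapped. The ratio of mean intensities to control cells was 4.45 in shPGRN cells (limma log2 change 1.66 ± 0.13, adjusted p = 4.54e-09) and 4.52 in hPGRN cells (limma log2 change 1.68 ± 0.13, adjusted p = 6.19e-09). No difference between the modified lines was detected (limma log2 change -0.03 ± 0.13, adjusted p = 0.924). The array held 1 probe for Fbp2, and the probe of Fbp1, the liver isoform, was above background on 1 array only.

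The 250 bases before the RefSeq start of Fbp2 (chr13:62858401-62858650 on the minus strand of GRCm38.p6, 5′ to 3′) are shown because this gene had the highest fold changes of the set. They hold the letters ACGTG on both strands as the palindrome CACGTG, in capitals, whose first base lies 42 bases before the start. The palindrome was found in 7.15% of 32851 mouse promoters of 300 bases.
Fbp2: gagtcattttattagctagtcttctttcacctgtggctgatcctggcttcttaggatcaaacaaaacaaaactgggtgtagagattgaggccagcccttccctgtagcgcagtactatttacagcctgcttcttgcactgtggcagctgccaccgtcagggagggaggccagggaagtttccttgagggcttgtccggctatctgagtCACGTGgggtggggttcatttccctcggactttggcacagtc

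Stc1, which encodes the secreted glycoprotein stanniocalcin 1, had the lowest fold changes of the set. The study also named this gene from these samples, in its comparison of shPGRN with hPGRN cells. Its place in the set is therefore no independent choice. The control arrays read 115, 149, 146 and 135, whereas the shPGRN arrays read 4.83, 32.9, 7.40 and 0.442 and the hPGRN arrays 6.93, 7.86, -0.0896 and 20.6. Only 1 of 4 arrays in each modified line was above background, at limits of 12.1 to 12.9, so the gene passed the filter through its control level. The fit gave log2 changes of -1.33 in shPGRN (limma adjusted p = 1.7e-08) and -1.37 in hPGRN cells (limma adjusted p = 1.74e-08) against control cells. A gene kept for its control level alone had to differ, so these p-values are given as a description, and the fold is not exact because most arrays of the modified lines give only a limit. With values below the background limit set to that limit, the log2 fold changes were -3.09 and -3.26. Between the modified lines the fit without this floor detected no difference (limma log2 change 0.04 ± 0.11, adjusted p = 0.884). Its other probe was above background on 1 control array only, and read -7.14 to 15.7 over the control arrays.

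Some markers of cell identity also separated both modified lines from control cells. Isl1, a motor neuron transcription factor, was at 1550.3 ± 197 (SD, n = 4) in shPGRN, 2242 ± 128 in hPGRN and 1063 ± 74.9 in control cells. Stmn2, a neuronal microtubule regulator, was at 57.2 ± 12.4, 3.42 ± 9.04 and 215 ± 38.4 in the same order. The study named Stmn2, like Stc1, in its comparison of shPGRN with hPGRN cells. Map2 (184, 181 and 250 in the same order) and the dim Slc18a3 (0.714, 17.9 and 31.6) also had lower means in both modified lines. For both genes the hPGRN arrays overlapped the control arrays. Others of the 15 neuronal markers did not separate both modified lines from control cells. Nefm had means of 94.4, 96.3 and 93.1 and Uchl1 of 4889, 5067 and 4221, with overlapping arrays. Phox2a (3337, 4621 and 4835) and Gap43 (411, 646 and 728) had their lowest means in shPGRN cells only. Of 3 Schwann cell markers with a probe, Pmp22 was above background on all 12 arrays, S100b on 1 and Sox10 on none. The summed intensity of the 3 was 641 to 760.2 in shPGRN, 735 to 903 in hPGRN and 329.8 to 533 in control cells, carried by Pmp22, which was called higher in both modified lines (limma log2 fold changes 0.66 and 0.89). Of 5 macrophage markers 2 were above background on at least 4 arrays, and the sum of the 5 was 53.3 to 84.2 in shPGRN, 45.1 to 89.5 in hPGRN and 13.6 to 65.4 in control cells. Of 7 fibroblast markers 2 were above background on at least 4 arrays, and Col1a1 and Postn were on none. Of 6 astrocyte and oligodendrocyte markers 1 was above background on at least 4 arrays. The sum of the 6 was 84.4 to 103 in shPGRN, 56.0 to 78.8 in hPGRN and 75.7 to 102 in control cells. The part of any of these markers or cells in the values of Fbp2 and Stc1 was not tested.

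**Figure D2:**
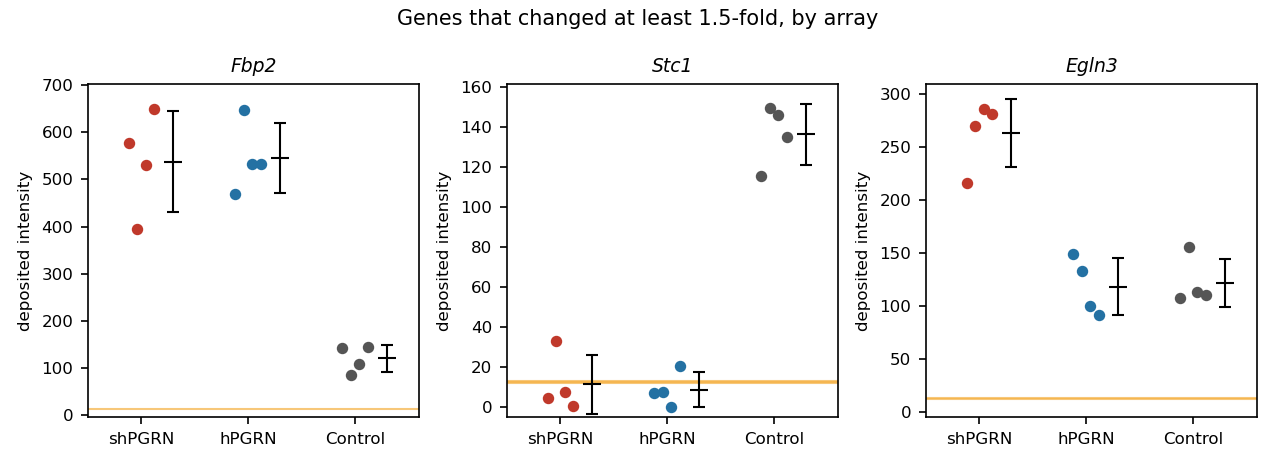
Deposited intensity (linear scale) of Fbp2, Stc1 and Egln3 on each of the 4 arrays per group, with the group mean and SD in black and the range of the background limits as an orange line. Fbp2 is high and Stc1 near background in both modified lines, while Egln3 is high in shPGRN cells only, with no overlap with either other group.

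Egln3 encodes the prolyl hydroxylase PHD3, an oxygen sensor that is itself a HIF target. It was higher in shPGRN cells than in both other groups. The shPGRN arrays read 216, 269.8, 286 and 281, the hPGRN arrays 148, 133, 99.8 and 91.3 and the control arrays 108, 156, 113 and 109.9. All 4 shPGRN arrays were above the other 8, and hPGRN and control arrays overlapped. The ratio of means was 2.16 against control cells (limma log2 change 0.79 ± 0.11, adjusted p = 2.65e-05) and 2.23 against hPGRN cells (limma log2 change 0.82 ± 0.11, adjusted p = 2.19e-05). Between hPGRN and control cells the log2 fold change was -0.03 (SE 0.11). The other 2 probes of Egln3 lay near or below background, and the higher of them reached 35.9 on shPGRN replicate 2 alone.

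The 250 bases before the Egln3 start (chr12:54203875-54204124 on the minus strand of GRCm38.p6) are shown because Egln3 was the sole gene of the set past 1.5-fold between the modified lines. They contain 1 match to the HIF core, ACGTG, in capitals, 229 bases before the start.
Egln3: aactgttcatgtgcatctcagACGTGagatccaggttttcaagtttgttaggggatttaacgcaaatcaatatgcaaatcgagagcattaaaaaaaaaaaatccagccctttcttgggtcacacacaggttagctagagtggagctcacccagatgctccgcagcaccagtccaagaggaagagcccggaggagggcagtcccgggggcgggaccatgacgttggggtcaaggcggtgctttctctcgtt

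Of the HIF subunits, Hif1a was higher in shPGRN than in control cells. It read 356, 336, 342 and 385 in shPGRN and 295, 219, 227 and 186 in control cells, with no overlap (limma log2 change 0.50 ± 0.12, adjusted p = 0.00773). The hPGRN arrays fell into a lower and a higher pair, at 223, 257, 374 and 359, and overlapped both other groups (limma against control cells log2 change 0.30 ± 0.12, adjusted p = 0.164). Its other 2 probes were near or below background. Arnt was called higher in shPGRN cells by its brightest probe (limma log2 change 0.30 ± 0.10, adjusted p = 0.0424), at 289.8 to 315 against 186 to 292 with overlap. This call was lost without any 1 of 8 arrays, namely all 4 of shPGRN cells, hPGRN replicates 2 and 4, and control replicates 1 and 4 (adjusted p up to 0.145), with a normexp offset of 16, a floor at background, no filter or only the compared arrays in the fit (adjusted p = 0.0638, 0.0732, 0.0744 and 0.0769), and with the mean over its 5 kept probes (log2 fold change 0.13, adjusted p = 0.216). With adjustment over all probes the brightest probe missed the threshold (limma over all probes, log2 change 0.30 ± 0.10, adjusted p = 0.0547), and no other kept Arnt probe was called.

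The remaining oxygen sensing genes did not pass the test in any comparison. Egln1 and Egln2, the other HIF prolyl hydroxylases, read 61.1 to 103 and 32.1 to 67.0 in shPGRN cells, and 58.7 to 105 and 42.5 to 64.4 in control cells. Vhl was dim, between 13.5 and 47.5 on the 12 arrays. Epas1 was not above background on enough arrays to be tested, and its brighter probe reached 17.5 at most.

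At glucose entry, Slc2a3, which encodes GLUT3, was lower in shPGRN cells than in both other groups. It read 877, 965, 1032 and 951 in shPGRN, 1246, 1523, 1246 and 1367 in hPGRN and 1269.5, 1352, 1109 and 1094 in control cells. The shPGRN arrays overlapped neither group. The log2 fold change was further from 0 against hPGRN cells (limma log2 change -0.46 ± 0.10, adjusted p = 0.00198) than against control cells (limma log2 change -0.31 ± 0.10, adjusted p = 0.0315), where the call was lost without shPGRN replicate 1, 2 or 4 or control replicate 1 or 2 (adjusted p up to 0.0982), and with a normexp offset of 16 (adjusted p = 0.0562), a floor at background (adjusted p = 0.0673) or no filter (adjusted p = 0.0567). Slc2a1, the widely expressed GLUT1, was not called, with 316 to 347 in shPGRN, 338 to 429 in hPGRN and 310.4 to 370.0 in control cells (limma log2 fold changes -0.06, 0.14 and -0.20).

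The phosphofructokinases catalyse the committed step of glycolysis. Pfkl, the liver form, was higher in hPGRN than in control cells (limma log2 change 0.44 ± 0.09, adjusted p = 0.00277), at 2552, 2680.1, 2701 and 2641 against 1907, 2147, 1709 and 1959 with no overlap. In shPGRN cells it read 2240.4, 2276, 2100.2 and 2212, below every hPGRN array, and this difference missed the threshold (limma log2 change -0.25 ± 0.09, adjusted p = 0.0559). Pfkp, the platelet form, had a log2 fold change of 0.34 in hPGRN against control cells (adjusted p = 0.0929) and -0.34 between the modified lines (adjusted p = 0.0587). Pfkm, the muscle form, had values of 0.20 and -0.15 (adjusted p = 0.242 and 0.344). Hexokinase 1 was dim, at 28.0 to 73.5 over all arrays, and Pfkfb3, which makes the activator of phosphofructokinase, was above background on no array.

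In the lower part of the pathway, Aldoa was called higher and Gapdh lower in shPGRN cells, while the other aldolase, Aldoc, was not called. Aldoa, which splits fructose bisphosphate, was higher than in control cells (limma log2 change 0.38 ± 0.10, adjusted p = 0.0132), with 3575, 3765, 3348 and 3001 against 2976, 2127, 2643 and 2727 and no overlap. Without control replicate 2, the lowest array, the log2 fold change was 0.29 (adjusted p = 0.0535). Gapdh, often used as a reference gene, was lower (limma log2 change -0.34 ± 0.09, adjusted p = 0.00908). Its arrays read 6669.7, 7369, 6896 and 7522 in shPGRN, 7699, 7057, 7836 and 7208 in hPGRN and 8372, 9107, 9734 and 8975 in control cells. Neither modified line overlapped the control arrays, although in hPGRN cells the difference just missed the threshold (limma log2 change -0.28 ± 0.09, adjusted p = 0.056). Gapdh and several other glycolytic genes have processed pseudogenes in the mouse, and the probe sequences were not used here, so cross-hybridization was not tested.

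Tpi1, triose phosphate isomerase, gave different calls by probe. Its brightest probe, which stands for the gene, read 3708 to 4733 in shPGRN, 3604 to 4623 in hPGRN and 4499.6 to 5672 in control cells and was not called (limma log2 fold changes -0.24 and -0.26, adjusted p = 0.138 and 0.147). The second probe was at 1295, 1156, 1247 and 1293 in shPGRN, 1154, 1170.0, 1156 and 1178 in hPGRN and 1540.4, 1872, 1454 and 1426 in control cells, lower in both modified lines with no overlap (limma over all probes, shPGRN cells first, log2 change -0.31 ± 0.09, adjusted p = 0.0341 and log2 change -0.40 ± 0.09, adjusted p = 0.0126). A further, dim probe, at 76.2, 59.4, 78.9 and 70.3 in shPGRN, 90.9, 82.7, 101 and 103 in hPGRN and 142, 134, 108 and 198 in control cells, was also called lower in both (limma over all probes, shPGRN cells first, log2 change -0.59 ± 0.11, adjusted p = 0.000677 and log2 change -0.37 ± 0.11, adjusted p = 0.0448). All 3 probes had lower means in both modified lines than in control cells.

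No call was made for the remaining enzymes of this stretch. Pgk1, phosphoglycerate kinase, read 425 to 710.0 in shPGRN and 609 to 746 in control cells (limma log2 change -0.16 ± 0.12, adjusted p = 0.437). Pgam1 had a log2 fold change of -0.25 (adjusted p = 0.141), Eno2, the neuronal enolase, -0.22 (adjusted p = 0.229), and Aldoc, the brain aldolase, 0.01 (adjusted p = 0.966). Pkm, pyruvate kinase, stayed within 3977 to 5869.7 on all arrays.

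Lactate dehydrogenase A, a textbook HIF target, had nearly the same level in the 3 groups. Ldha read 6026, 5584, 6433 and 6300.2 in shPGRN, 5161, 5434, 6136 and 6059 in hPGRN and 6045, 5729, 5729 and 6245 in control cells. The log2 fold change against control cells was 0.03 (SE 0.09) in shPGRN and -0.06 (SE 0.09) in hPGRN cells, and the groups overlapped. Pdk1, a kinase of the pyruvate branch, was dim at 31.7 to 71.6 and not called. Slc16a3, the lactate exporter MCT4, was above background on 6 arrays, and Ldhb, Slc16a1, Pdk2 and Pdk3 were too dim to be tested.

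**Figure D3:**
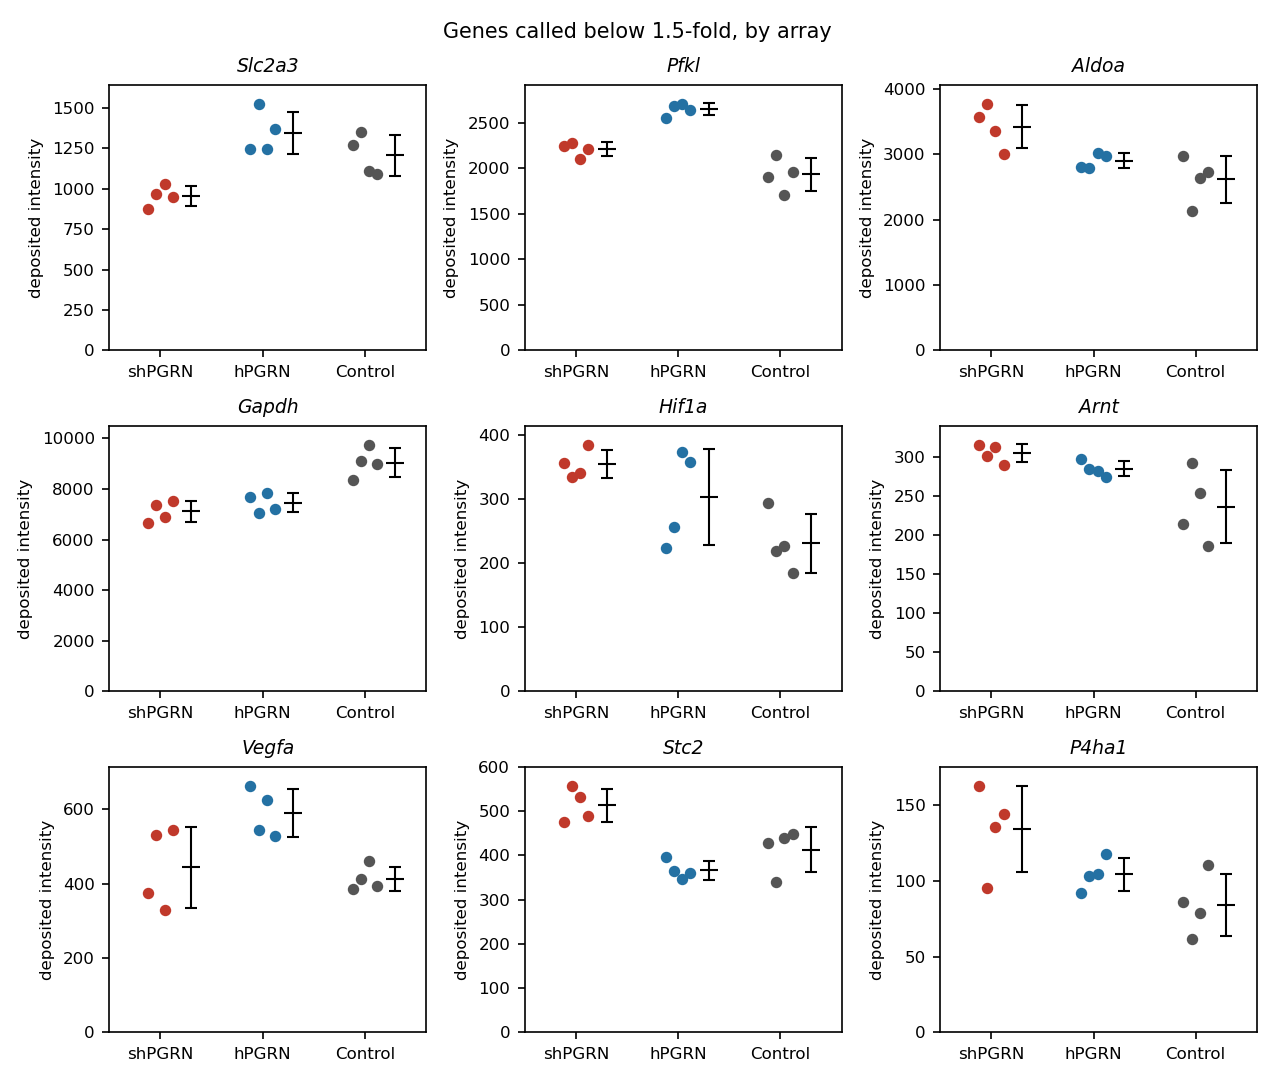
Deposited intensity (linear scale, from 0) of the 9 other genes called in any comparison, on each of the 4 arrays per group, with the group mean and SD in black. Pfkl is highest in hPGRN cells and Slc2a3 lowest in shPGRN cells, while the arrays of Arnt and P4ha1 overlap between shPGRN and control cells and those of Vegfa between the modified lines.

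Among the HIF targets outside glycolysis, Vegfa, Stc2 and P4ha1 were also called, with smaller changes. Vegfa, the angiogenic growth factor, was higher in hPGRN than in control cells (limma log2 change 0.45 ± 0.12, adjusted p = 0.026), at 662, 543, 626 and 527 against 386, 412, 459 and 393 with no overlap. Its second kept probe, at 309, 312, 311 and 288 against 201, 184, 138 and 219.6, was called the same way (limma over all probes, log2 change 0.56 ± 0.10, adjusted p = 0.00134). Vegfa was lower in shPGRN than in hPGRN cells (limma log2 change -0.38 ± 0.12, adjusted p = 0.0396), with 374, 529.8, 329 and 543 in shPGRN cells and overlap. The other kept probe had no overlap between these lines but missed the threshold (limma over all probes, log2 change -0.30 ± 0.10, adjusted p = 0.0537). The first call was lost without hPGRN replicate 1 or 3 or control replicate 1, 2 or 4 (adjusted p up to 0.0851), and the second without shPGRN replicate 1 or 3 or hPGRN replicate 1, 2 or 3 (adjusted p up to 0.163). Both were lost with a normexp offset of 16 (adjusted p = 0.0757 and 0.0886) and a floor at background (adjusted p = 0.107 and 0.118), and the second without the filter (adjusted p = 0.0547).

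Stc2, the paralog of Stc1, did not follow it. It was higher in shPGRN than in hPGRN cells (limma log2 change 0.42 ± 0.09, adjusted p = 0.00376), at 477, 557, 532 and 489 against 397, 364, 346 and 361, and its control arrays read 427, 339, 439 and 449. The shPGRN arrays lay above all others, while the difference from control cells missed the threshold (limma log2 change 0.27 ± 0.09, adjusted p = 0.0524). P4ha1, the catalytic subunit of collagen prolyl 4-hydroxylase, was higher in shPGRN than in control cells (limma log2 change 0.40 ± 0.11, adjusted p = 0.0154), at 162, 95.2, 135 and 144 against 86.0, 61.4, 78.5 and 110.5 with overlap. The call was lost without shPGRN replicate 1 (adjusted p = 0.063) or control replicate 2 (adjusted p = 0.0588).

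P4ha2 was not called by its brightest probe in shPGRN against control cells (limma log2 change 0.24 ± 0.09, adjusted p = 0.0894), whereas the second kept probe was, at 410.5, 384, 449.6 and 399 in shPGRN against 358, 258, 347 and 286 in control cells (limma over all probes, log2 change 0.34 ± 0.10, adjusted p = 0.0293). A dim second probe of P4ha1, at 29.9, 27.7, 36.9 and 27.6 in hPGRN against 22.0, 15.8, 1.89 and -4.44 in control cells, was called in that comparison only (limma over all probes, log2 change 0.35 ± 0.10, adjusted p = 0.0459).

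Several of the most used markers of low oxygen gave no signal to compare. Car9, carbonic anhydrase IX, had 3 probes, none above background on any array, and Bnip3, a mitophagy receptor, was above background on 3 arrays with 17.1 at most. The 12 probes of the 9 genes that were not tested lay between -22.0 and 19.2. Adm, the peptide hormone adrenomedullin, was above background on 6 arrays and Ankrd37 was dim throughout, at 20.1 to 50.3. Ddit4, an inhibitor of mTORC1 signalling, was bright and scattered within every group, with 1477, 1803, 1633 and 1027 in shPGRN and 1587, 1223, 1238 and 613 in control cells, and was not called (limma log2 change 0.37 ± 0.20, adjusted p = 0.253).

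Over the 50 kept probes of these genes, each probe tested for itself, 11 were called in shPGRN against control cells (6 higher, 5 lower), 8 in hPGRN against control cells (5 higher, 3 lower) and 4 between the modified lines (2 higher, 2 lower). The share of all 20582 kept probes called was 11.2%, 5.30% and 11.1%. More than 1 kept probe was available for 12 genes, and the plot of these probes shows where they part. Tpi1 was called by its 2 dimmer probes in each modified line against control cells. Vegfa was called by both kept probes in hPGRN against control cells, and by the brightest alone between the modified lines.

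**Figure D4:**
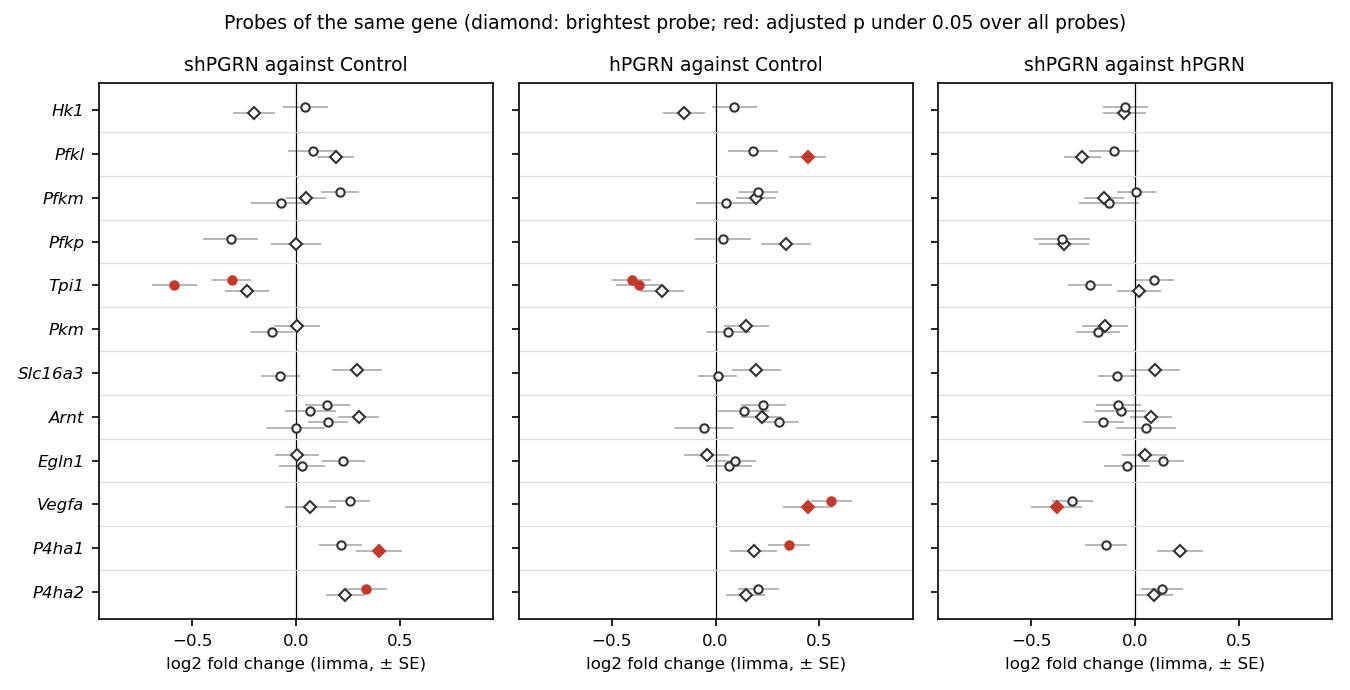
Log2 fold change with its limma standard error for every kept probe of the 12 genes that had more than 1, in the 3 comparisons. Diamonds mark the brightest probe and red marks an adjusted p under 0.05 over all 20582 probes, where the 3 Tpi1 probes lie at -0.24, -0.31 and -0.59 in shPGRN against control cells.

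The HIF core was searched for in the promoters of the set. The set was listed partly as known HIF targets, so a high share of the core is no result of these data. In RefSeq promoters of GRCm38.p6, from 250 bases before to 50 after each start, ACGTG was found on either strand in 19.6% of 32851 promoters and GCGTG in 32.4%, and either of them in 43.8%. Promoters were listed for 41 of the 44 genes, all but Slc2a3, Epas1 and Stc1. Of the 57 promoters of these genes, 54.4% held ACGTG, 56.1% GCGTG and 78.9% either. Counted by gene, with 1 or more promoters each, 28 of the 41 held ACGTG, 26 held GCGTG and 36 held either in at least 1 promoter. ACGTG was found in 7 of the 10 called genes with a promoter and in 14 of the 20 tested genes that were not called.

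Short stretches around the core, in capitals, are shown for genes chosen after their values were seen, namely genes that were called and for known HIF targets that were not. Hif1a was called higher in shPGRN cells and Aldoa and P4ha1 likewise. Slc2a1, Ldha and Pgk1 were not called in any comparison. CACGT is ACGTG read on the other strand.
Hif1a (chr12:73907789-73907809, plus strand): tgagagcaACGTGggctgggg
Aldoa (chr7:126799368-126799388, minus strand): gctcgagtCACGTcctagcgg
P4ha1 (chr10:59323272-59323292, plus strand): acagagcgCACGTagcgaggg
Slc2a1 (chr4:119108701-119108721, plus strand): cgccccggACGTGctccccag
Ldha (chr7:46845749-46845769, plus strand): cagcctacACGTGggttcccg
Pgk1 (chrX:106186942-106186962, plus strand): cgtgcaggACGTGacaaatgg

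Beyond the 44 genes, 4 further lists covered 134 other genes of the same pathways, of which 90 were tested. In shPGRN against control cells 11 were higher and 9 lower, in hPGRN against control cells 5 were higher and none lower at an adjusted p under 0.05 in limma (20 of the 90 had an unadjusted p under 0.05), and between the modified lines 7 were higher and 12 lower. Their median log2 fold changes were -0.01, 0.02 and -0.02. Of the 90, 22.2%, 5.56% and 21.1% were called in either direction. Over all 11223 genes tested, 7.36% were called higher and 6.89% lower in shPGRN against control cells. In hPGRN against control cells these shares were 3.74% and 3.24%, and between the modified lines 6.82% and 7.14%. The counts of each of the 4 lists below are to be read beside these shares. These lists too were chosen with earlier results of these data known, so a higher share among them is no independent result.

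Of 26 other glycolysis genes, 1 was higher and 1 lower in shPGRN than in control cells, 1 was higher in hPGRN cells, and 3 were higher and 3 lower between the modified lines. Pgls, of the pentose phosphate pathway, was lower in shPGRN than in control cells (limma log2 change -0.47 ± 0.10, adjusted p = 0.00155) and than in hPGRN cells (limma log2 change -0.64 ± 0.10, adjusted p = 7.35e-05). Tkt, transketolase of the same pathway, was higher in shPGRN than in hPGRN cells (limma log2 change 0.45 ± 0.09, adjusted p = 0.00154). Eno3, the muscle enolase, was higher in shPGRN than in control cells (limma log2 change 0.37 ± 0.10, adjusted p = 0.0144). Slc2a6, a GLUT family transporter, was higher in hPGRN than in control cells (limma log2 change 0.43 ± 0.09, adjusted p = 0.00466).

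Of 14 genes of pyruvate and lactate handling, 1 was higher and 3 lower in shPGRN than in control cells, and 4 were lower than in hPGRN cells. Pdha1, the catalytic alpha subunit of pyruvate dehydrogenase, was at 1905 ± 211 in shPGRN, 2465 ± 98.7 in hPGRN and 2575 ± 270.0 in control cells (SD, n = 4), lower in shPGRN cells than in both others (limma, against control cells first, log2 change -0.42 ± 0.10, adjusted p = 0.00476 and log2 change -0.37 ± 0.10, adjusted p = 0.0136). Pdp2, a phosphatase that activates the same complex, was also lower than in both (limma, against control cells first, log2 change -0.32 ± 0.09, adjusted p = 0.0169 and log2 change -0.53 ± 0.09, adjusted p = 0.000243). Pdpr, a regulatory subunit of pyruvate dehydrogenase phosphatase, was higher in shPGRN than in control cells (limma log2 change 0.36 ± 0.11, adjusted p = 0.0268). Between hPGRN and control cells none of the 14 was called by limma, and 3 had an unadjusted p under 0.05.

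Among 15 other regulators of HIF, Siah1b, of a family of ubiquitin ligases that act on Egln proteins, was lower in shPGRN than in control cells (limma log2 change -0.46 ± 0.10, adjusted p = 0.002) and hPGRN cells (limma log2 change -0.55 ± 0.10, adjusted p = 0.000348). Os9, a lectin of the endoplasmic reticulum, was higher than in control cells (limma log2 change 0.36 ± 0.10, adjusted p = 0.0146), and Hsp90aa1, a chaperone of HIF-1α, was higher than in hPGRN cells (limma log2 change 0.36 ± 0.11, adjusted p = 0.0249). The other 12 were not called in any comparison.

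Of 35 other hypoxia targets, 8 were higher and 4 lower in shPGRN than in control cells, 4 were higher and none lower in hPGRN cells (12 with an unadjusted p under 0.05 in limma), and 3 were higher and 4 lower between the modified lines. Vldlr, the receptor of very low density lipoprotein, was lower in shPGRN cells, at 326 ± 17.8 against 759 ± 71.4 in hPGRN and 647 ± 48.6 in control cells (limma, against control cells first, log2 change -0.85 ± 0.09, adjusted p = 6.78e-07 and log2 change -1.06 ± 0.09, adjusted p = 3.43e-08). The study named this gene from these samples, so its place in the list is no independent evidence. Car12, carbonic anhydrase XII, rose in shPGRN cells against control (limma log2 change 0.79 ± 0.09, adjusted p = 1.81e-06) and hPGRN cells (limma log2 change 0.48 ± 0.09, adjusted p = 0.000702). Anxa2, a membrane-binding protein, was higher than in control cells in shPGRN (limma log2 change 0.71 ± 0.10, adjusted p = 2.27e-05) and in hPGRN cells (limma log2 change 0.74 ± 0.10, adjusted p = 3.76e-05). Bnip3l, the paralog of Bnip3, was lower in shPGRN than in hPGRN cells (limma log2 change -0.48 ± 0.09, adjusted p = 0.000676). In hPGRN cells Dusp1, a phosphatase of MAP kinases, and Kdm4b, a histone demethylase, were higher than in control cells (limma, Dusp1 first, log2 change 0.49 ± 0.09, adjusted p = 0.00111 and log2 change 0.41 ± 0.10, adjusted p = 0.00965).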

How the data were processed

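Intensity values for 45281 probes on 12 arrays were deposited by the authors. They are linear, have background subtracted and share a single distribution (31.7 to 31.8% of values below 0). The study's methods name lumi normalization and an empirical Bayes test in FlexArray with a 1.5-fold limit, and the steps behind this table are not stated. A non-normalized table of 24 columns (signal and detection p-value) has names that match no sample and was not used.

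The deposited intensities were passed through normexp (offset 50) and quantile normalization and log2-transformed in limma 3.58.1 (R 4.3.3). An intensity of 0 becomes 72.2 before log2, so that folds of dim genes shrink, and fold changes refer to this scale. Each array's background limit was its modal value plus an allowance from the spread of lower values. Probes that exceeded it on 4 or more of 12 arrays were kept (20582), and each of 11223 genes was represented by its brightest kept probe (4204 had over 1). Of all probes, 34885 carry 1 gene symbol in the platform annotation, 18 several and 10378 none, and 34807 match RefSeq by Entrez ID. The limma fit took all 12 arrays and a mean per group, and p-values were adjusted by Benjamini-Hochberg over all genes, with calls at an adjusted p under 0.05. Probes were also tested singly, adjusted over all kept probes. The steps were tested on simulated data. The precision is limited by 4 arrays per group. The BeadChip layout and other batches are not stated.

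The members and lists were chosen with earlier results of these data known. All called members are named, with values per array where the change reached 1.5-fold or probes disagreed, and values for other called genes were added after they were seen. Of the other lists, up to 3 genes with the smallest adjusted p per list and comparison were eligible for naming. Alternatives changed the background correction, scaling, filter, choice of probe, arrays in the fit, array weights, threshold and a block for the replicate number.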

Additional observations from a re-analysis of the deposited data

Results flagged for a closer look

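In 3 of 96 combinations of gene and group, 1 array lay far from the other 3 by Dixon's criterion at 95%, which chance meets in about 1 of 20 groups. Slc2a1 read 347 on shPGRN replicate 3, above the others at 316.1 to 318.4. Eno2 read 382.5 on shPGRN replicate 4, below the others at 506.2 to 531.3. Egln3 read 155.7 on control replicate 2, above the others at 107.6 to 112.9, and that array stayed below every shPGRN array. Slc2a1 and Eno2 were not called in any comparison.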

How the results depend on the processing

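Of the 17 calls among these genes, 11 were kept in every alternative in which the gene was tested, apart from the added requirement of 1.5-fold, and no direction reversed. The other 6 were lost in at least 1, namely Slc2a3, Aldoa, Arnt and P4ha1 in shPGRN against control cells and both calls of Vegfa. Apart from that requirement, Aldoa and P4ha1 were lost only when an array was left out. With a normexp offset of 16 or a floor at background, the calls of Slc2a3 and Arnt against control cells and both of Vegfa were lost. Arnt was also lost with the mean over its kept probes and with only the compared arrays in the fit. Without the filter on dim probes those of Slc2a3 and Arnt, and of Vegfa between the modified lines, were lost, with 41 genes tested. Requiring all 12 arrays above background left 29 genes and took Stc1 out of the test. Both calls of Stc1 count among the 11 kept, although the gene passed the filter through its control level and had to differ, so they do not speak for stability. At an unadjusted p under 0.05 the numbers called were 15, 11 and 10 for shPGRN against control, hPGRN against control and shPGRN against hPGRN cells, and at an adjusted p with at least 1.5-fold 3, 2 and 1, against 9, 4 and 4 as reported. Leaving out 1 array at a time gave 6 to 9, 3 to 4 and 3 to 6. With the replicate block the numbers were 9, 4 and 4, and the call of Vegfa between the modified lines was lost (adjusted p = 0.0617). Arrays of the same replicate number correlated at -0.159 to 0.127 over 12 pairs once group means were removed, with 2 pairs over 0.1, so replicate numbers do not pair the arrays. Other scaling moved the median of all genes by less than 0.01 on the log2 scale. The deposited values already share a single distribution, so the scaling alternatives could hardly differ and are no test of the calls. Signal over background limits the dim genes, since 9 of 41 genes could not be tested.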
